A study of Saccharomyces cerevisiae with 45 samples.

Results

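The transcripts of 9 genes of glutamate, proline and GABA metabolism were followed through the germination of yeast spores with and without rapamycin, an inhibitor of the growth-promoting kinase complex TORC1. The genes GDH1, GDH2, GDH3, GLT1, GLN1, PUT1, PUT2, UGA1 and UGA4 were chosen by name, with earlier results of these data known. They are 9 of the 6723 genes of the table. The spores were of strain SK1 of Saccharomyces cerevisiae, and the study gives its strains as carrying lys2, his3, leu2, trp1, ura3 and ho::LYS2, so every group shares them. RNA-Seq was performed on purified spores that had not been transferred, on spores in the rich medium YPD with DMSO, the solvent control, and on spores in YPD with 2 µM rapamycin (2000 nM). The cultures with DMSO and with rapamycin were each sampled at 0, 10 and 30 min and then at 60, 120, 240 and 360 min. With 3 replicates lettered A, B and C in each of 15 conditions, there were 45 libraries. The labels do not say whether the letters mark separate spore preparations, so the p-values measure the spread between these samples, which may be technical. Each library came from a population of spores, in which fewer cells with a transcript and less of it per cell cannot be told apart.

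Yeast makes glutamate, the main donor of nitrogen in the cell, from ammonium and 2-oxoglutarate through the NADP-dependent glutamate dehydrogenases Gdh1 and its paralog Gdh3. Glutamine synthetase, Gln1, adds a further ammonium, and glutamate synthase, Glt1, passes nitrogen from glutamine back to 2-oxoglutarate. The NAD-dependent enzyme Gdh2 runs in the opposite direction and releases ammonium from glutamate. Proline is broken down to glutamate in mitochondria by the proline oxidase Put1 and then by Put2, whose genes are activated by Put3. GABA is taken up by the permease Uga4, and its breakdown is begun by the transaminase Uga1, which also yields glutamate. On good nitrogen sources many genes for the use of poor ones are held down by nitrogen catabolite repression, and when TORC1 is inhibited the activators Gln3 and Gat1, which recognise the sequence GATAAG, enter the nucleus.

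All 9 genes have a single coding exon in the R64 reference annotation from RefSeq, and no annotated gene overlaps any of them. GDH1 (YOR375C) lies at chrXV:1041678-1043042 on the minus strand, GDH2 (YDL215C) at chrIV:70640-73918 on the minus strand and GDH3 (YAL062W) at chrI:31567-32940 on the plus strand. GLT1 (YDL171C) lies at chrIV:149203-155640 on the minus strand and GLN1 (YPR035W) at chrXVI:642208-643320 on the plus strand. The plus strand also holds PUT1 (YLR142W) at chrXII:425186-426616, PUT2 (YHR037W) at chrVIII:181977-183704, UGA1 (YGR019W) at chrVII:525229-526644 and UGA4 (YDL210W) at chrIV:84270-85985. The coding sequences of GDH1 and GDH3 are 76.2% identical in bases and 86.7% in residues, and their longest shared run is 35 bases. That is shorter than a read, and 0 of the 1265 windows of read length in GDH1 and 0 of the 1274 in GDH3 occur anywhere else in the reference, so no read of either matches the other in full in this reference. The reads themselves were aligned to the SK1 genome, of which no sequence was used here.

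Part of the stretch before each start codon was searched for the GATAAG sequence and the spaced triplets of Put3. A window of 300 bases, from 450 to 151 bases before the start codon, was searched on both strands for GATAAG and for CGGNNNNNNNNNNCCG. GATAAG was found 3 times before UGA4 and 3 times before GDH3, and 1 time before each of GDH1, GLT1, PUT1 and PUT2. The whole window of GDH1 lies inside its neighbour YOR376W, which begins after a gap of 148 bases, and the windows of PUT2 and PUT1 reach 234 and 39 bases into BRL1 and RRN5. The windows of GDH2, GLN1 and UGA1 did not hold GATAAG. The bases nearer to the start codons were not searched for any gene, so a gene without a match in its window may carry one there. Among 5986 such windows of the genome, 14.2% held GATAAG and 1.44% held it at least 2 times. The windows of UGA4 and GDH3 are printed because they hold the most matches, with GATAAG or its reverse complement in capitals, and the first pair of matches before GDH3 shares 1 base.
UGA4, chrIV:83820-84119, plus strand: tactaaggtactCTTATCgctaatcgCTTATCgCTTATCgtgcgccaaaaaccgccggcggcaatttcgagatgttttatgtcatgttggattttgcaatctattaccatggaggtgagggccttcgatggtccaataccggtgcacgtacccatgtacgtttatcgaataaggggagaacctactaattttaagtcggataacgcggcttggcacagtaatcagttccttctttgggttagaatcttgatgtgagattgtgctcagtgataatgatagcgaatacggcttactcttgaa
GDH3, chrI:31117-31416, plus strand: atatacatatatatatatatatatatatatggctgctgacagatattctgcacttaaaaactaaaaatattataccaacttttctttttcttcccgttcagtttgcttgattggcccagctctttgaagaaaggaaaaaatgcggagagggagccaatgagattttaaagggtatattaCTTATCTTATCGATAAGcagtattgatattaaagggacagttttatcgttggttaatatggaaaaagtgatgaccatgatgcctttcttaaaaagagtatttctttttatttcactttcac

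The spaced triplets of Put3 were found 2 times before PUT1, 1 time before PUT2 and 1 time before GDH2, while 2.1% of all windows held them. Each site is printed as the gene's own strand reads, its triplets in capitals. The site of PUT2 lies in the 216 bases that separate PUT2 from its neighbour BRL1. A match is a description of the letters and not evidence of binding.
PUT1, chrXII:424878-424893: CGGcaatggctttCCG
PUT1, chrXII:424906-424921: CGGgtttcgcatcCCG
PUT2, chrVIII:181811-181826: CGGgaagccaactCCG
GDH2, chrIV:74285-74300, minus strand: CGGaaaaccaagtCCG

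The libraries held between 7736397 and 14522407 counted reads each, with a median of 10942773. Levels are given as read counts scaled to a common library total (CPM) after TMM scaling over all libraries, and a gene was called when its adjusted p was under 0.05 and its change at least 2-fold (edgeR's quasi-likelihood test, Benjamini-Hochberg adjustment over all genes tested). The labels were checked against markers fixed with the design. The summed level of 4 late sporulation genes (SPS100, DIT1, DIT2 and SPS4) was 10127 to 13612 CPM in purified spores and 38.8 to 50.03 CPM at 360 min with DMSO. SPS100 alone held 10055.5 to 13426.5 CPM of this in spores. The summed level of 4 genes of growing cells (NSR1, NOP1, RPL3 and RPS3) went from 898 to 969.7 CPM in spores to 15314 to 17561 CPM at 120 min with DMSO. By 360 min with DMSO that sum was lower again, at 8453 to 9282 CPM. In the rapamycin library of replicate A at 360 min the growth genes summed to 2738 CPM against 6387 and 6401 CPM in its replicates, so the rapamycin results at that time are also given without it. Scaling by library size alone in place of TMM shifted the genome-wide median change by 0.32, 0.50 and 0.23 (log2) for rapamycin against DMSO at 60, 120 and 240 min, and every change below is relative to the TMM scale. Against spores that shift was 0.36 and 0.30 at 10 and 30 min with DMSO, -0.19, -0.41 and -0.28 at 60, 120 and 240 min with DMSO, and 0.15 and 0.12 at 60 and 120 min with rapamycin.

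Purified spores held little GDH1 and much GDH3. The level of GDH1 was 27.0, 29.8 and 21.8 CPM in the spore libraries A, B and C, and that of GDH3 was 456, 510 and 447 CPM. The paralogs thus did not overlap, although the coding sequences are nearly equally long. Per kilobase of coding sequence, GDH3 had the highest mean level of the 9 genes in spores, 342.7 ± 24.7 CPM per kb (SD, n = 3). It was followed by UGA1 at 334.5 ± 25.0 and PUT2 at 276.5 ± 15.005 CPM per kb, and GDH3 and UGA1 differed by less than this spread. GLN1 stood at 163.6 ± 7.22, GLT1 at 121.7 ± 10.3, GDH2 at 74.1 ± 4.79 and PUT1 at 60.6 ± 13.7 CPM per kb, where PUT1 and GDH2 again differed by less than the spread. GDH1 at 19.2 ± 2.99 and the permease gene UGA4 at 12.9 ± 3.64 CPM per kb were the lowest of the 9. Together the 9 genes took 0.271% ± 0.0136 (SD, n = 3) of all counts in spores.

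**Figure D1:**
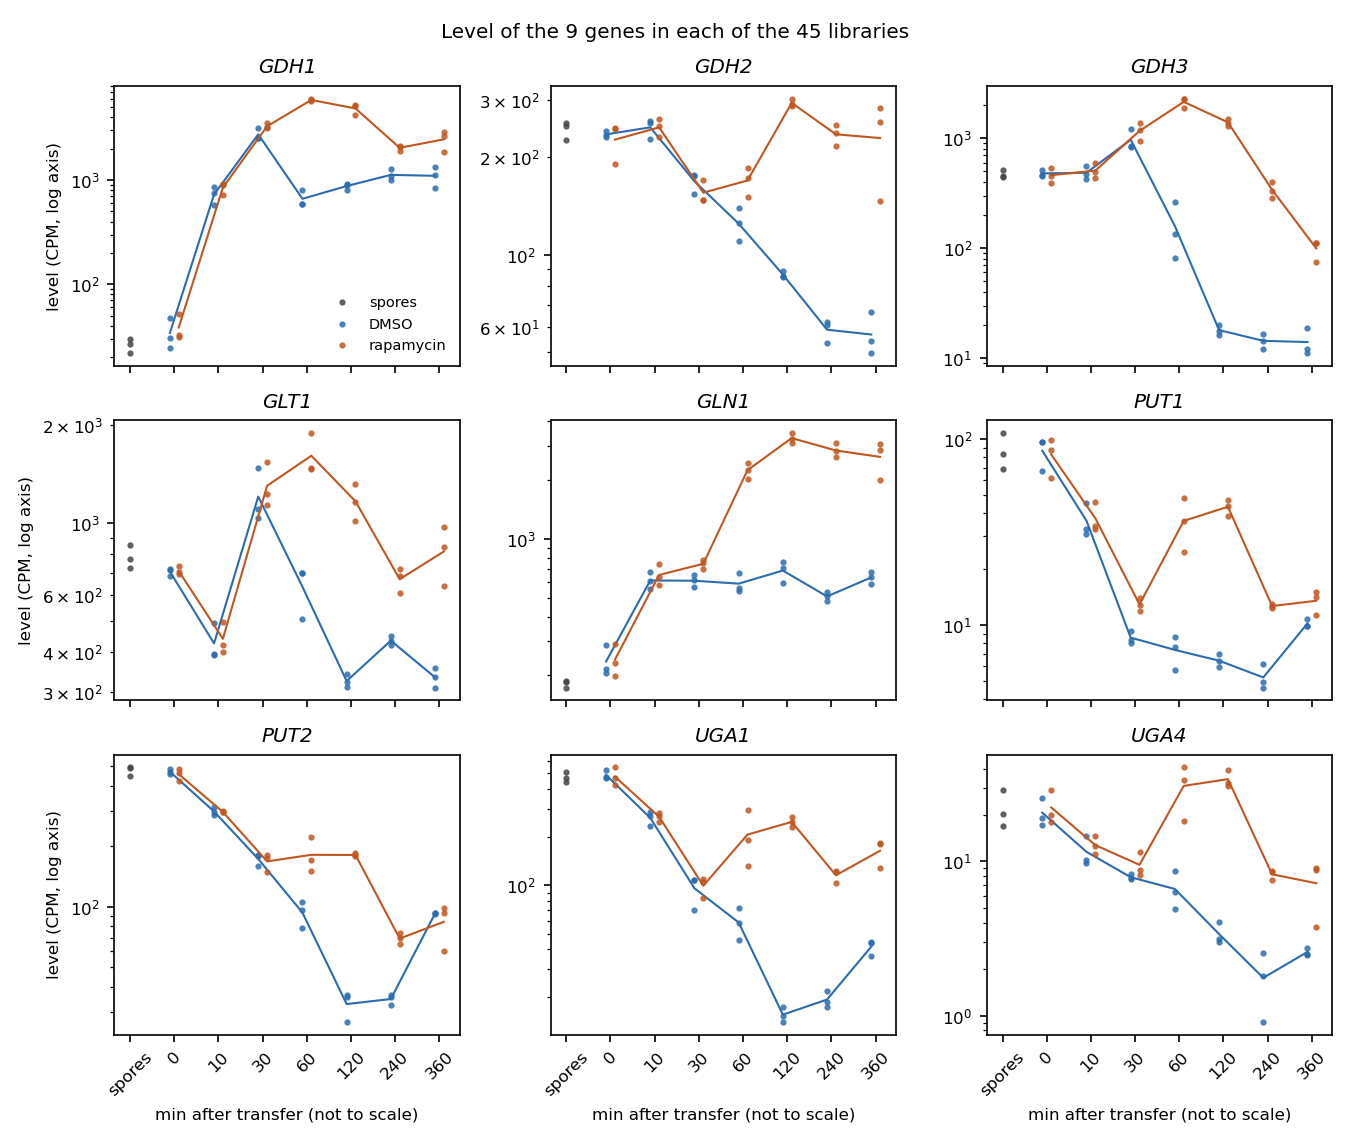
Level of each gene in CPM (log axis) in purified spores and at 7 times after transfer into YPD with DMSO or rapamycin, with 1 point per library and lines through the means of 3 replicates. Up to 30 min none of these genes is called between the cultures. PUT1 and GLN1 do not overlap at 30 min, like 7.14% of all genes tested. At 60 min GDH3 lies between 80.8 and 261 CPM with DMSO and between 1881 and 2287 CPM with rapamycin.

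How the genes changed as spores germinated was asked by comparing each DMSO time with purified spores, and these comparisons share the 3 spore libraries. At 0 min 0 of the 9 genes were called, as were 0% of the 5742 genes tested, although 949 genes had an unadjusted p under 0.05. Other fits did call genes there, 16 with DESeq2. With edgeR these were 3 with no filter on low counts and 4 with a term for the replicate letter (the replicate block). In 1 fit of all 45 libraries 23 were called, and without DMSO replicate C 20. GDH1 and GLN1, which assimilate ammonium, rose within 10 min. GDH1 reached 852, 759 and 573 CPM at 10 min and 2554, 3152 and 2546 CPM at 30 min, so each step left the range of the one before. The log2 fold change of GDH1 against spores was 4.80 ± 0.18 (SE, adjusted p = 7.54e-09) at 10 min and 6.72 ± 0.18 (adjusted p = 2.42e-10) at 30 min. GLN1 rose from 173, 186 and 188 CPM in spores to 611, 675 and 551 CPM at 10 min, a log2 fold change of 1.75 ± 0.09 (adjusted p = 6.36e-08). It then stayed between 480 and 762 CPM in every later DMSO library.

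GDH3 was called higher at 30 min and lower from 60 min on. Its libraries at 10 min (471, 560 and 424 CPM) overlapped those of spores, at 30 min it lay at 848, 1222 and 840 CPM, and by 120 min it had dropped to 17.7, 20.1 and 16.03 CPM. The log2 fold change against spores was 1.05 ± 0.15 (adjusted p = 5.15e-05) at 30 min, which went under 2-fold without DMSO replicate B (0.86), and it was -4.72 ± 0.11 (adjusted p = 1.91e-12) at 120 min. GLT1 was lower at 10 min than at 30 min in every library, with 491, 391 and 393 CPM at 10 min, 1474, 1107 and 1036 CPM at 30 min and 341, 311 and 324 CPM at 120 min. The changes of GLT1 at 10 and 30 min, -0.88 ± 0.11 and 0.63 ± 0.14 on the log2 scale, did not reach 2-fold, and that at 120 min was -1.27 ± 0.10 (adjusted p = 6.46e-08). GDH2 lay at 255, 248 and 225 CPM in spores and 255, 258 and 227 CPM at 10 min, which overlap. By 240 min it was at 60.7, 53.2 and 62.1 CPM, a log2 fold change of -2.07 ± 0.10 (adjusted p = 1.95e-11).

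The genes for the use of proline and GABA were all lower than in spores from 30 min on, and PUT1 was called already at 10 min. At 10 min PUT2 (-0.68 ± 0.08 on the log2 scale), UGA1 (-0.84 ± 0.09) and UGA4 (-0.94 ± 0.21) also had an adjusted p under 0.05 without overlap but missed 2-fold, and UGA4 passed it without DMSO replicate A (-1.14) or spore replicate B (-1.08). PUT1 went from 83.2, 108 and 69.0 CPM in spores to 32.8, 45.6 and 30.9 CPM at 10 min and 8.05, 9.35 and 8.28 CPM at 30 min, without overlap at either time. Among all genes tested, 77.8% did not overlap with spores at 10 min and 83.3% at 30 min. The log2 fold change of PUT1 was -1.25 ± 0.18 (adjusted p = 7.73e-05) at 10 min, which became -0.89 and was not called with library size alone, and -3.33 ± 0.17 (adjusted p = 1.01e-08) at 30 min. PUT2 dropped from 494, 448 and 492 CPM in spores to 36.2, 26.7 and 35.4 CPM at 120 min, a log2 fold change of -3.86 ± 0.12 (adjusted p = 6.88e-12). At 360 min PUT2 was back at 92.7, 91.9 and 92.9 CPM, above every DMSO library at 120 and 240 min. UGA1 showed the same order of levels, with 441, 511 and 468 CPM in spores, 15.3, 14.0 and 17.5 CPM at 120 min and 44.5, 43.9 and 36.0 CPM at 360 min. Its log2 fold change against spores was -4.92 ± 0.11 (adjusted p = 1.77e-12) at 120 min. UGA4 was the gene with the fewest reads, with 29.1, 17.0 and 20.3 CPM in spores and 2.55, 1.81 and 0.91 CPM at 240 min, which rest on 22, 20 and 7 reads.

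Counted over the 9 genes, 2 were higher and 1 lower than spores at 10 min, where 15.4% of all genes tested were called higher and 7.37% lower. With library size alone 1479 genes were higher and 128 lower at that time, in place of 899 and 430. At 30 min 3 of the 9 were higher and 4 lower, beside 24.3% and 20% of all genes, and library size alone turned the genome-wide 1414 higher and 1161 lower genes into 1781 and 836. At 60 min 2 were higher (GDH1 and GLN1) and 5 lower, beside 28.5% and 26.8% of all genes. GDH2 at -0.99 missed 2-fold at 60 min and passed it with library size alone (-1.18), with 1 fit of all 45 libraries (-1.01) and without spore replicate B (-1.005), spore replicate C (-1.07) or DMSO replicate B (-1.06). All 7 genes other than GDH1 and GLN1 were lower at 120 min, where 31% of genes were higher and 30.8% lower, and library size alone gave 1434 and 2229 in place of 1782 and 1774. At 240 min 2 were higher and 6 lower beside 30.1% and 29.9%, GLT1 being at -0.87. With library size alone GLT1 (-1.15) was also called at 240 min, and the genome-wide 1733 higher and 1725 lower genes became 1484 and 2047. At 360 min 2 were higher and 7 lower beside 29.4% and 28.6%.

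The effect of rapamycin was then asked by comparing its cultures with the DMSO cultures of the same time. Up to 30 min 0 of the 9 genes were called. At 0 min and 10 min 0% of the 5757 and 5863 genes tested passed, with 22 and 100 genes at an unadjusted p under 0.05 in edgeR and 0 calls with DESeq2. At 30 min 0.0172% passed, which is 1 of 5823 genes with edgeR and 1 with DESeq2, and 145 genes had an unadjusted p under 0.05. The log2 fold changes of the 9 genes lay between -0.07 and 0.18 at 0 min, between -0.00 and 0.23 at 10 min and between -0.11 and 0.60 at 30 min. The largest at 30 min was that of PUT1, at 11.96, 12.8 and 13.97 CPM with rapamycin and 8.05, 9.35 and 8.28 CPM with DMSO. These libraries did not overlap, yet the adjusted p of the change of 0.60 ± 0.13 was 0.78. GLN1 was the other gene without overlap at 30 min, with 781, 753 and 705 CPM against 565, 651 and 615 CPM and a change of 0.30 ± 0.08. Among all genes tested at that time 7.14% did not overlap in either direction, 416 of 5823. The replicate letters paired the libraries at 0, 10 and 30 min, and the tests above left this pairing out. With the replicate block in edgeR 171, 725 and 421 genes fell below 0.05 before adjustment, in place of 22, 100 and 145. With the block, the share of genes tested that reached this threshold was under 0.05 at 0 min and over 0.05 at 10 and 30 min. Genes without a difference also reach it, so these unadjusted counts alone do not show that the early cultures differed. The genes called stayed at 0, 0 and 1, and no call among the 9 genes changed.

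At 60 min 7 of the 9 genes were called higher with rapamycin and 0 lower, where 10.4% of the 5683 genes tested were higher and 8.82% lower. With library size alone 8 of the 9 were called, and the genome-wide split of 592 higher and 501 lower became 1006 and 241. The median log2 fold change was 1.98 over the 9 genes and 0.04 over all genes tested. Because the 9 genes were chosen with earlier results of these data known, these counts and medians describe them and test nothing. UGA1 is also among the genes that the study selected partly from its germination transcriptomes. At 120 min all 9 were higher, where 21.3% of 5667 genes were higher and 15.6% lower (1900 and 472 genes in place of 1207 and 882 with library size alone). The medians were 2.49 and 0.03. At 240 min 6 were higher and 0 lower, where 14.1% of genes were higher and 7.68% lower. With library size alone GDH1 (1.04) and PUT2 (1.18) also passed while the genome-wide 798 higher and 434 lower became 1034 and 220. At 360 min 7 were higher and 0 lower, where 10.4% of genes were higher and 5.3% lower. Without replicate A of rapamycin at 360 min the number was also 7.

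**Figure D2:**
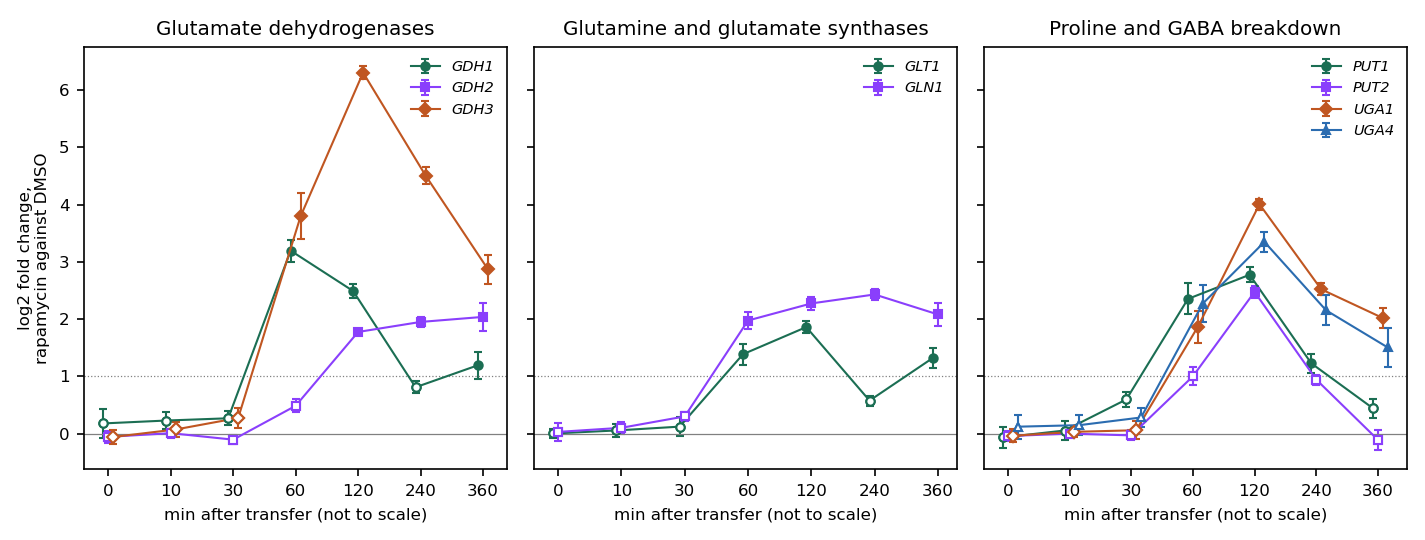
Log2 fold change of the 9 genes in rapamycin against DMSO at 7 times, grouped by role, with bars of 1 standard error and open symbols where the gene was not called, the dotted line marking 2-fold. GDH3 peaks at 6.30 at 120 min, GDH2 and GLN1 stay near 2 from 120 min to 360 min, and PUT2 is back below 2-fold at 240 min and PUT1 at 360 min.

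The paralogs GDH1 and GDH3 had the largest changes at 60 min. GDH1 lay at 6041, 5736 and 5864 CPM with rapamycin and at 595, 799 and 590 CPM with DMSO, a log2 fold change of 3.20 ± 0.19 (adjusted p = 3.02e-05). Only 7 genes had a higher mean level per kilobase than GDH1 in these rapamycin libraries, among 6008 genes with a known length. GDH3 lay at 2287, 1881 and 2261 CPM with rapamycin and at 134, 261 and 80.8 CPM with DMSO, and its change was 3.797 ± 0.41 (adjusted p = 0.000318). At 120 min GDH3 was at 1390, 1493 and 1305 CPM against 17.7, 20.1 and 16.03 CPM, a 79.1-fold difference (log2 6.30 ± 0.11, adjusted p = 3.21e-10). It was the largest rise among all 5667 genes tested at that time. GDH1 at 120 min was at 5130, 5276 and 4200 CPM against 807, 918 and 907 CPM, 2.49 ± 0.12 on the log2 scale (adjusted p = 1.11e-08).

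Both paralogs were lower at 240 and 360 min than at 120 min in every rapamycin library. GDH3 was at 334, 400 and 284 CPM at 240 min and at 75.4, 112 and 111 CPM at 360 min, still above the DMSO libraries, which lay between 11.0 and 18.7 CPM at those times. Its log2 fold change was 4.51 ± 0.15 (adjusted p = 2.9e-11) at 240 min and 2.87 ± 0.25 (adjusted p = 0.000117) at 360 min, and 3.04 without rapamycin replicate A. GDH1 at 240 min, with 1915, 2081 and 2131 CPM against 1009, 1091 and 1269 CPM, did not overlap but differed by less than 2-fold (0.81 ± 0.10, adjusted p = 9.71e-06). At that time 75.8% of all genes tested did not overlap. At 360 min the change of GDH1 was 1.19 ± 0.24 (adjusted p = 0.00598), and 1.35 without rapamycin replicate A.

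The gene for Gdh2, the enzyme that releases ammonium, was called from 120 min on. At 60 min it lay at 172, 150 and 185 CPM with rapamycin and 110, 139 and 125 CPM with DMSO, and the change of 0.49 ± 0.12 had an adjusted p of 0.00684 but was below 2-fold. At 120 min the values were 302, 292 and 286 CPM against 89.2, 85.8 and 85.3 CPM, a change of 1.78 ± 0.06 (adjusted p = 2.14e-09). The rapamycin libraries at 120 min were the highest of any condition for this gene, all above the 225 to 255 CPM of spores. At 360 min GDH2 was at 146, 257 and 283 CPM against 66.3, 54.2 and 49.6 CPM, with replicate A the low library, and the change was 2.04 ± 0.25 (adjusted p = 0.00065), or 2.27 without that library.

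GLN1 was called at each time from 60 min on, and GLT1 at 60, 120 and 360 min. GLN1 lay at 2254, 2038 and 2459 CPM with rapamycin at 60 min against 543, 558 and 670 CPM with DMSO, a log2 fold change of 1.98 ± 0.15 (adjusted p = 0.000103). At 120, 240 and 360 min its change was 2.27 ± 0.11, 2.43 ± 0.10 and 2.08 ± 0.21 (adjusted p = 1.2e-08, 2.86e-10 and 0.000236), and 2.24 at 360 min without rapamycin replicate A. The rapamycin libraries of GLN1 from 60 min on, between 2002 and 3488 CPM, lay above all 21 DMSO libraries. GLT1 reached 1893, 1474 and 1469 CPM with rapamycin at 60 min against 699, 703 and 504 CPM, a change of 1.39 ± 0.19 (adjusted p = 0.000534), and its change was 1.86 ± 0.10 (adjusted p = 2.9e-08) at 120 min. At 240 min, with 720, 684 and 608 CPM against 432, 421 and 448 CPM, it differed by 0.58 ± 0.09, below 2-fold. At 360 min GLT1 was called again at 1.32 ± 0.18 (adjusted p = 0.000984), and at 1.46 without rapamycin replicate A.

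PUT1 was called higher with rapamycin at 60, 120 and 240 min, and PUT2 at 120 min. PUT1 was at 36.2, 24.6 and 48.2 CPM at 60 min against 8.63, 7.67 and 5.76 CPM, a log2 fold change of 2.35 ± 0.27 (adjusted p = 0.000363). At 120 min it was at 43.9, 47.2 and 38.8 CPM against 6.38, 6.95 and 5.97 CPM (2.77 ± 0.13, adjusted p = 9.29e-09). PUT2 was at 172, 151 and 221 CPM at 60 min against 78.8, 106 and 95.9 CPM, and the change of 1.00 ± 0.16 (adjusted p = 0.00101) fell just short of 2-fold. It passed 2-fold with library size alone (1.32), with no filter on low counts (1.00), and without rapamycin replicate A or B (1.04 and 1.12) or DMSO replicate B or C (1.10 and 1.01). At 120 min PUT2 was at 178, 185 and 180 CPM against 36.2, 26.7 and 35.4 CPM (2.48 ± 0.10, adjusted p = 4.32e-09). At 360 min PUT2 overlapped between the cultures, with 60.4, 93.0 and 99.1 CPM against 92.7, 91.9 and 92.9 CPM (-0.11 ± 0.18, adjusted p = 0.641, and 0.08 without rapamycin replicate A). PUT1 at 360 min, with 15.1, 14.1 and 11.4 CPM against 10.8, 9.91 and 9.87 CPM, did not overlap but was not called (0.44 ± 0.17, adjusted p = 0.0687, and 0.35 without rapamycin replicate A). Among all genes tested, 60.1% did not overlap at 360 min.

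UGA1, the GABA transaminase gene, had a 2.24-fold range between the rapamycin replicates at 60 min, close to the 2.21-fold range of UGA4, with 193, 133 and 297 CPM against 45.7, 58.6 and 71.8 CPM with DMSO. The change was 1.86 ± 0.29 (adjusted p = 0.000856), and 1.52 without rapamycin replicate C. At 120 min the replicates lay closer, at 249, 231 and 268 CPM against 15.3, 14.0 and 17.5 CPM, a 16.1-fold difference (4.01 ± 0.10, adjusted p = 6.2e-10). UGA1 at 240 and 360 min was 2.52 ± 0.11 and 2.02 ± 0.17 higher on the log2 scale (adjusted p = 3.86e-10 and 0.00012), and 2.17 at 360 min without rapamycin replicate A. The permease gene UGA4 was at 33.6, 18.4 and 40.7 CPM with rapamycin at 60 min against 8.63, 6.34 and 4.90 CPM (2.27 ± 0.33, adjusted p = 0.000659). At 120 min it was at 39.2, 32.4 and 31.0 CPM, from 413, 366 and 274 reads, against 4.03, 3.12 and 2.98 CPM, from 36, 22 and 27 reads (3.35 ± 0.17, adjusted p = 1.7e-08). At 240 min UGA4 was at 8.70, 7.52 and 8.51 CPM against 2.55, 1.81 and 0.91 CPM (2.15 ± 0.26, adjusted p = 7.43e-06). It met the filter on low counts there only through the rapamycin libraries. At 360 min UGA4 was at 3.77, 9.07 and 8.81 CPM against 2.52, 2.76 and 2.49 CPM, and the change was 1.504 ± 0.34 (adjusted p = 0.0106). That change was not called without DMSO replicate C (1.46, adjusted p = 0.0512) and became 1.82 without rapamycin replicate A.

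Other transcripts moved with the same libraries. The 3 resting-cell genes HSP12, HSP26 and SPG4 summed to 440, 326 and 696 CPM in the rapamycin libraries A, B and C at 60 min and to 178, 210 and 187 CPM with DMSO. In those rapamycin libraries replicate C was the highest and B the lowest for 6 of the 9 genes too, PUT1, PUT2, UGA1, UGA4, GLN1 and GDH2, while GDH1, GDH3 and GLT1 were highest in A. Of the resting-cell genes 2 of 3 were called higher at 60 min and all 3 at 120 min, while 0 and 1 of the 4 late sporulation genes were higher. The 4 growth genes were all lower with rapamycin at both times, with sums of 2920 to 4478 CPM against 8385 to 10345 CPM at 60 min and 4042 to 4623 CPM against 15314 to 17561 CPM at 120 min. Late sporulation genes summed to 763 to 1286 CPM with rapamycin and 925 to 1363 CPM with DMSO at 60 min, and to 341 to 778 CPM and 122 to 206 CPM at 120 min. SPS100 made up most of these sums, with means of 463 CPM with rapamycin and 140 CPM with DMSO at 120 min. Mean SPS4 was lower with rapamycin, at 23.0 against 39.7 CPM at 60 min and 18.7 against 26.4 CPM at 120 min. DIT1 and DIT2 at 120 min had means of 7.02 against 4.05 CPM and 1.51 against 1.31 CPM. The resting-cell genes summed to 331 to 555 CPM and 83.1 to 164 CPM at 120 min. The part of these differences in state in the changes of the 9 genes was not tested.

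Whether the effect of rapamycin differed between times was tested as an interaction over 12 libraries. Between 30 and 60 min it became larger for 8 of the 9 genes, where 9.71% of the 5841 genes tested were called in that direction. GDH2 was the exception at 0.58 ± 0.15 (adjusted p = 0.00653), below 2-fold, and the gain was largest for GDH3 at 3.51 ± 0.46 (adjusted p = 0.000134). With library size alone the genome-wide 567 higher and 465 lower genes became 985 and 193, and 8 of the 9 were again called. For PUT2, at 1.02 ± 0.20 (adjusted p = 0.00102), the gain fell below 2-fold without DMSO 60 min replicate A (0.91), rapamycin 30 min replicate A (0.94), DMSO 30 min replicate B (0.98) or rapamycin 60 min replicate C (0.85). Between 60 and 360 min the effect of rapamycin became larger for GDH2 (1.49 ± 0.29, adjusted p = 0.00134) and smaller for GDH1 (-2.06 ± 0.31, adjusted p = 0.00022), PUT1 (-1.97 ± 0.34, adjusted p = 0.000619) and PUT2 (-1.17 ± 0.26, adjusted p = 0.00297). That is 1 gene higher and 3 lower of 9, beside 10.9% and 12.2% of 5756 genes, and 630 higher and 703 lower genes became 428 and 923 with library size alone. Without rapamycin 360 min replicate A the change of PUT2 was -0.99 and was not called, and GDH2 (1.72), GDH1 (-1.91) and PUT1 (-2.07) were the 3 genes called. The change of GDH3, at -0.99 ± 0.49 (adjusted p = 0.118), passed only without DMSO 60 min replicate B (-1.55, adjusted p = 0.00798).

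The ratio of GDH1 to GDH3 within a library does not depend on how libraries are scaled. Per kilobase it was 0.0597, 0.0589 and 0.0490 in spores, 1.82, 1.36 and 1.36 at 10 min with DMSO, and 3.03, 2.60 and 3.05 at 30 min with DMSO. GDH1 thus passed its paralog within 10 min in every DMSO library. With DMSO the ratio went on to 45.9, 45.9 and 56.9 at 120 min and 77.4, 60.7 and 110 at 360 min. With rapamycin it was 1.88, 1.52 and 1.68 at 10 min and 2.38 to 3.31 at 30 min, which overlap the DMSO libraries, and 2.66, 3.07 and 2.61 at 60 min. It lay at 3.72, 3.56 and 3.24 at 120 min, at 5.77, 5.24 and 7.56 at 240 min and at 25.1, 25.9 and 23.9 at 360 min, below every DMSO library of the same time. No p is given because 3 libraries against 3 cannot reach a two-sided exact p below 0.1. Together the 9 genes took 1.35% ± 0.130 (SD, n = 3) of all counts at 60 min and 1.22% ± 0.0913 at 120 min with rapamycin, and 0.197% ± 0.0280 and 0.151% ± 0.00426 with DMSO.

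**Figure D3:**
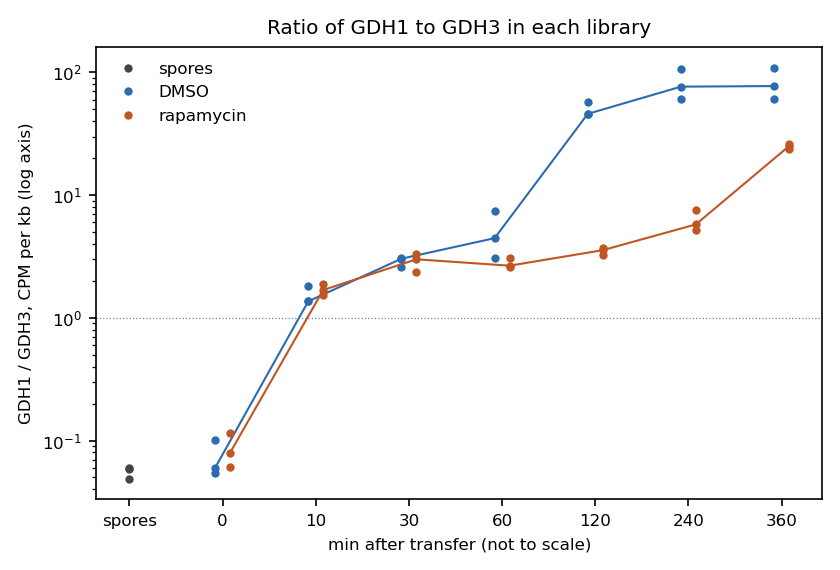
Ratio of GDH1 to GDH3 in CPM per kilobase of coding sequence (log axis), with 1 point per library, lines through the medians and a dotted line at equal levels. The ratio lies under 1 in spores and at 0 min in both cultures, and at 120 min it is 45.9 to 56.9 with DMSO and 3.24 to 3.72 with rapamycin.

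The rapamycin cultures were also compared with purified spores, in comparisons that share the spore libraries with those of DMSO. At 60 min 4 of the 9 were higher than spores and 3 lower, where 23.5% of genes were higher and 19.9% lower. At 120 min 3 were higher and 2 lower beside 24.5% and 21.2%, and at 360 min 2 were higher and 5 lower beside 28.7% and 25.9%. Without rapamycin 360 min replicate A 7 were again called. GDH1 was 7.80 ± 0.21 above spores on the log2 scale at 60 min with rapamycin (adjusted p = 6.66e-08) and 4.63 ± 0.16 with DMSO (adjusted p = 6.29e-11). GDH3 was 1.56 ± 0.10 above spores at 120 min with rapamycin (adjusted p = 3.51e-08), and 4.72 below with DMSO as given above. PUT2 with rapamycin was -1.41 ± 0.08 at 120 min, and UGA1 was -0.94 ± 0.09 and short of 2-fold. PUT1 at 120 min sat at the limit, at -1.004 ± 0.15 (adjusted p = 4.74e-05), and it was not called with library size alone (-0.89), with no filter (-0.99), with the replicate block (-0.997), in 1 fit of all 45 libraries (-0.996), or without spore replicate B (-0.84), rapamycin replicate A (-0.998) or rapamycin replicate C (-0.92). The replicate letters paired these libraries, and the block was the only pairing that changed a call among the 9 genes. At 60 min GLT1 (1.03 ± 0.15) was not called without rapamycin replicate A (0.92) or spore replicate B (0.96), nor UGA1 (-1.20 ± 0.26) without rapamycin replicate B (-0.94).

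Of 20 other genes of these pathways, 9 rose and 1 fell with rapamycin at 60 min, while at 120 min 12 rose and 2 fell, when the shares of all genes were those given for the 9 genes. With library size alone 0 fell at either time. Their median log2 fold change was 0.76 at 60 min and 1.31 at 120 min. The largest rise at 60 min was that of PUT4, the proline permease gene, with 41.1, 28.6 and 53.4 CPM against 3.66, 3.78 and 3.87 CPM (3.48 ± 0.25, adjusted p = 7.24e-05). CAR1, the arginase gene, was at 102, 88.0 and 120 CPM against 11.0, 10.5 and 15.7 CPM (3.10 ± 0.18, adjusted p = 2.71e-05). UGA2, whose product completes the breakdown of GABA to succinate, was at 100.9, 55.7 and 157 CPM against 13.4, 20.1 and 19.4 CPM (2.61 ± 0.36, adjusted p = 0.000559). GAD1, the glutamate decarboxylase gene, was at 17.7, 5.94 and 53.0 CPM against 6.19, 5.52 and 8.25 CPM, which overlap, and its call (1.98 ± 0.67, adjusted p = 0.0320) was lost when DMSO replicate A, B or C was left out in turn (1.93, 1.86 and 2.16) and without rapamycin replicate C (0.87). The 1 lower gene was ODC2, a mitochondrial 2-oxodicarboxylate carrier gene, with 104, 105 and 87.6 CPM against 251, 174 and 212 CPM (-1.06 ± 0.14, adjusted p = 0.000567), and it was not called with library size alone (-0.75) or without DMSO replicate A (-0.92) or rapamycin replicate C (-0.98). The genes for the regulators Put3 and Uga3 were not called at 60 min, with log2 fold changes of -0.53 ± 0.09 and 0.05 ± 0.12.

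**Figure D4:**
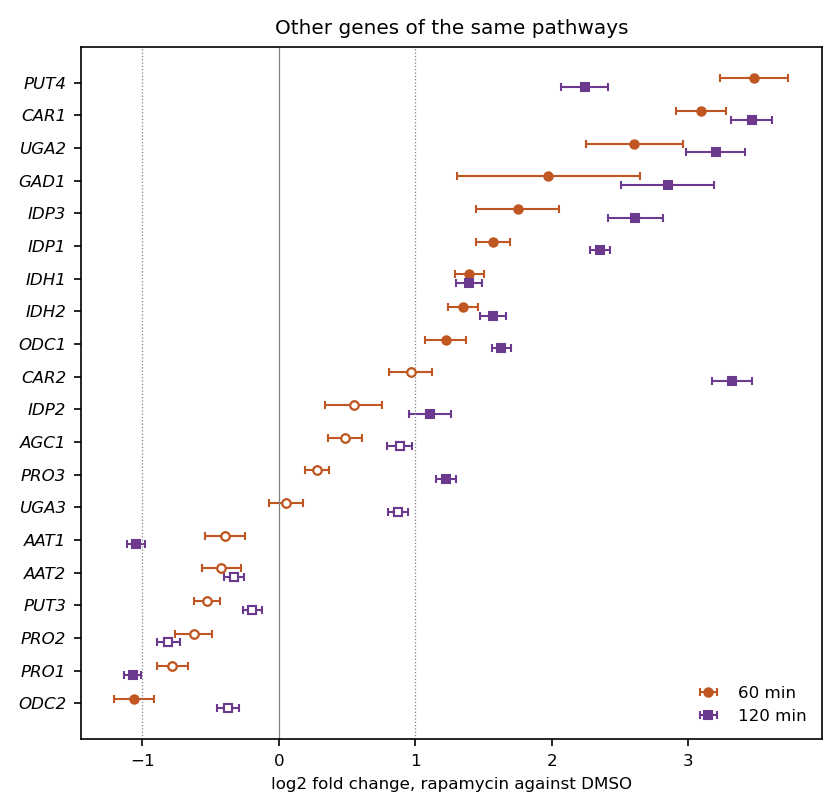
Log2 fold change of 20 other genes of the same pathways in rapamycin against DMSO at 60 and 120 min, with bars of 1 standard error, open symbols where the gene was not called and dotted lines at 2-fold. PUT4, CAR1 and UGA2 lead at 60 min with 3.48, 3.10 and 2.61, and ODC2 at -1.06 is the only gene called lower at that time.

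Over the 15 conditions, which share depth and composition within a library, the patterns of the 9 genes fell into different kinds. Pearson correlations of mean log2(CPM + 1) among PUT1, PUT2, UGA1 and UGA4 ranged from 0.79 to 0.92. GDH1 and GLN1 correlated at 0.84, GDH2 and UGA1 at 0.87 and GDH3 and UGA4 at 0.87, while GDH1 and PUT1 were at -0.60 and GDH1 and GDH3 at 0.06. Among 5459 genes with a mean above 5 CPM, the gene most like GDH1 was YHM2 (0.98), a mitochondrial citrate and 2-oxoglutarate carrier gene, and that most like GLN1 was BAT2 (0.98), a branched-chain amino acid transaminase gene. Those most like the others were MOH1 for GDH2 (0.94), PDH1 for GDH3 (0.97), HFA1 for GLT1 (0.85), AGP2 for PUT1 (0.98), RRI1 for PUT2 (0.99), PYK2 for UGA1 (0.99) and JIP4 for UGA4 (0.97). These are likenesses over 15 condition means and carry no test.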

How the data were processed

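RNA-Seq counts of 45 libraries of spores were analysed, all of them assigned to a condition and a replicate letter from the labels. Per the study's methods, the authors removed adapters by means of Trimmomatic 0.33, used hisat2 with the SK1 genome, and tallied reads by gene and strand (HTSeq, union mode, R64 annotation), and the deposited values are raw counts without normalization. The genome and the annotation are of different strains, so reads of diverged genes can be missing. The series record names other programs, and the study's methods were followed. RefSeq annotates 6008 of the 6723 genes, and the remainder, with 0.216% of the counts, stayed in the library sizes and tests.

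Every pairwise comparison used its own 6 libraries, and every interaction its 12, in R 4.3.3 with edgeR 4.0.16 (TMM, glmQLFit, glmQLFTest). The filter asked for over 1 CPM in 3 or more libraries. Standard errors were computed as the absolute log2 fold change over the square root of F. Scripts were tested on simulated data. Replicates all differed by more than sampling noise (smallest chi-square per degree of freedom 5.38). Depth sets the precision of a level, and intervals are not given, since reads are not independent molecules.

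The members and lists were chosen with earlier results of these data known. Named genes were the 9 members, of 20 other pathway genes the 4 largest rises and up to 4 largest falls among those called at 60 min, 1 most alike gene per member, and the markers. Put3 and Uga3 were named outside this rule, after their values were seen. Replicate letters were taken to pair libraries where every letter's correlation of deviations was over 0.1, which held for rapamycin against DMSO at 0, 10 and 30 min (smallest 0.441, 0.511 and 0.349), DMSO against spores at 0, 10 and 30 min (0.184, 0.255 and 0.133) and rapamycin against spores from 0 to 120 min (0.208, 0.174, 0.105, 0.118 and 0.122). Alternatives were DESeq2 1.42.0 and its size factors, library size alone, no filter, a replicate block, 1 fit of all libraries, no 2-fold minimum, and each library left out.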

Additional observations from a re-analysis of the deposited data

Results flagged for a closer look

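The effect of rapamycin differed between times by a test of the difference itself (edgeR's interaction term) for 12 pairs of gene and time. From 30 to 60 min it became larger on the log2 scale for GDH1 by 2.92, GDH3 by 3.51, GLT1 by 1.25, GLN1 by 1.66, PUT1 by 1.75, PUT2 by 1.02, UGA1 by 1.79 and UGA4 by 1.98. From 60 to 360 min it became larger for GDH2, by 1.49, and the difference was -2.06 for GDH1, -1.97 for PUT1 and -1.17 for PUT2. The libraries at 60 min enter both tests, so these values are not independent of each other.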

How the results depend on the processing

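Over the 9 genes, 144 log2 fold changes were recomputed under the alternatives, giving 1818 values. Of these, 1757 kept their direction and their side of the threshold, 18 lost the call, 17 gained it and 26 changed sign, among which 0 had been called. With no 2-fold minimum, 7 genes in place of 3 passed in DMSO against spores at 10 min and 9 in place of 5 in rapamycin against spores at 120 min. In 1 fit of all 45 libraries, GDH2 and GDH3 in DMSO against spores at 10 min became -0.0347 and -0.0134. With library size alone, the difference of the rapamycin effect between 360 and 60 min became -0.15 for GLN1 and -0.12 for UGA1. The replicate block took PUT1 in rapamycin against spores at 120 min to -0.997, just under 2-fold, and changed no other call of the 9 genes. Values that changed sign when 1 library was left out were GLT1, PUT2 and UGA1 in rapamycin against DMSO at 30 min (-0.029 to 0.30, -0.0865 to 0.0432 and -0.11 to 0.16), PUT2 at 360 min (-0.25 to 0.0779), GDH2 and GDH3 in DMSO against spores at 10 min (-0.0247 to 0.0964 and -0.0589 to 0.15) and GDH2 and GLT1 in rapamycin against spores at 360 min (-0.27 to 0.14 and -0.0783 to 0.20). The same held for the interaction between 360 and 60 min of GLT1 (-0.24 to 0.0211), GLN1 (-0.0489 to 0.20) and UGA1 (-0.15 to 0.44). The cause was not tested. Depth limits UGA4 most, whose DMSO libraries at 240 min hold 7 to 22 reads.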
